A study of Mus musculus with 27 samples.

Results

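Ltb, Cd27, Cd48 and Cd83 encode surface proteins through which lymphocytes and antigen-presenting cells signal to each other and to the stroma of lymphoid organs. Every mouse probe set whose platform gene symbol was one of these 4 was taken, which gave 5 of the 702 mouse probe sets on the array and 4 of its 573 mouse genes. Ltb, Cd48 and Cd83 had 1 probe set each. Cd27 had 2, told apart here by the suffixes _at and _s_at that the array gives them, and the second suffix is Affymetrix's mark for probes that can match more than 1 transcript.

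Lymphotoxin β, the product of Ltb, anchors lymphotoxin α (Lta) at the lymphocyte surface, and the complex binds the lymphotoxin β receptor (Ltbr) on stromal cells, a signal needed to build and maintain lymph nodes and splenic follicles. Cd27 is a receptor of the tumour necrosis factor (TNF) receptor family on T cells and some B and natural killer cells, and its ligand is Cd70. Cd48 is a lipid-anchored immunoglobulin-type protein of the Slam family on most blood cells and binds Cd2 and Cd244. Cd83, also an immunoglobulin-type protein, marks mature dendritic cells and activated lymphocytes and is used by thymic epithelium in the selection of CD4 T cells.

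Total RNA came from wild-type male C57BL/6 mice, an inbred strain, aged 6 to 8 weeks and given no treatment other than the label wild-type. Of the 9 tissues, lymph node, spleen, thymus and bone marrow are called lymphoid below, bone marrow being also the blood-forming tissue, and the other 5 were lung, liver, kidney, testis and brain. Each tissue was read on 3 biotin-labelled 1-colour arrays, a custom Affymetrix design for glycan-related and immune genes. The labels leave unsaid whether these 3 were separate animals or pools, so the p-values cover array-to-array spread, which may be technical, and the number of arrays limits the precision.

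Array medians ran from 221.5 to 243.7 and all 27 arrays correlated best with another array of their own tissue. Thymus replicate 1 was the highest of the 3 thymus arrays for 56.3% of the 702 probe sets, the members' 5 included, and spleen replicate 1 for 44.4% of them, again with all 5 members. Values are the deposited intensities, and human probe sets on the same arrays served as a rough cross-species background, with a median of 205.2 and a 95th percentile of 590.1. Defining markers fitted the labels of liver, lung, lymph node, thymus and bone marrow. The 3 hepatocyte markers summed to at least 7305 in liver and at most 1416 elsewhere, and the thymocyte receptor gene Ccr9 was at 1708 or more in thymus and at 241 or less elsewhere. The summed neuron and glia markers of brain (3666 to 4275) overlapped those of testis (2805 to 3792). Of these markers Mag, on the _at set that the sum leaves out, read 1213 ± 53.8 in brain. Its next highest mean was 383 ± 23.9 in testis. No kidney or testis marker of the lists was measured.

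RefSeq promoter windows (250 bases before to 50 after an annotated gene start, build GRCm38.p6) were at hand for Ltb, Cd27 and Cd48. They were searched on both strands for the κB-type word GGACTTTCC, bound by the NF-κB factors that lymphotoxin and TNF receptors activate, and for the Ets-type word CCGGAAGT, bound by Ets factors, both words chosen after the windows had been read. The Ltb sequence is shown because it holds the κB word, as GGAAAGTCC on the strand of the gene, starting at base -87 from the start. It is the stretch before the gene start, chr17:35194257-35194506, plus strand, with the match in capitals.
Ltb: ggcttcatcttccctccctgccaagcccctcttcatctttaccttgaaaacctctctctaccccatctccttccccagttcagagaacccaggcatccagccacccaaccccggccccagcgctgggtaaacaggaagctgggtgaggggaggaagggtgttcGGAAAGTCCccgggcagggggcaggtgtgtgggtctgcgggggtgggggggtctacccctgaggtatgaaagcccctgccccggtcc
The Cd48 window held the Ets word, as ACTTCCGG from base 6 after the start, and the 30 bases around it (chr1:171681986-171682015, plus strand) are shown for that match, again in capitals.
Cd48: aacctcatacgACTTCCGGttttgggtttt
Of 32851 RefSeq promoter windows of the same length, 0.344% held the κB word and 3.89% the Ets word. The Cd27 window held neither. A match is a stretch of letters and says nothing of binding in these tissues, in which no binding was measured.

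All 5 probe sets differed among the 9 tissues and all 5 were higher in the lymphoid tissues. In limma's moderated F test, with Benjamini-Hochberg adjustment over the 702 probe sets, each met the rule for a call, an adjusted p under 0.05 with tissue means at least 1 apart on the log2 scale from lowest to highest, which 52.3% of all probe sets met. The range from the lowest to the highest tissue was 52.5-fold for Ltb (adjusted p = 1.07e-20), 40.1-fold for Cd48 (1.17e-17), 17.9-fold for Cd27 _at (1.21e-13), 15.3-fold for Cd83 (1.40e-16) and 7.61-fold for Cd27 _s_at (5.40e-13). The lowest tissue mean lay under the human probe sets' median of 205.2 for all but Cd27 _s_at. For Cd27 _s_at it was 311, in liver, under their 95th percentile of 590.1. All 5 ranges are thus set against values not clearly above background.

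The mean of the 4 lymphoid tissues was compared with the mean of the other 5 in the same fit. Ltb was higher by 4.67 ± 0.08 (SE) on the log2 scale, 25.4-fold, with an adjusted p of 8.48e-24, and Cd48 by 3.70 ± 0.10, 13-fold, with 1.16e-19. Cd83 followed with 2.37 ± 0.08 (5.17-fold, 1.63e-17), then Cd27 _at with 1.97 ± 0.11 (3.92-fold, 4.46e-14) and Cd27 _s_at with 1.29 ± 0.08 (2.44-fold, 8.91e-13). Of all 702 probe sets 11.5% were called higher in this contrast and 3.13% lower, 81 and 22 probe sets, and the median difference was -0.04; quantile normalization gave 68 and 33 with a median of -0.14. In whole tissue, more cells that carry a transcript and more transcript per cell cannot be told apart. Many values outside the lymphoid tissues lay below the median of the human probe sets, so these folds are ratios of intensities and not of transcript numbers.

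The single arrays separated for Ltb and Cd48 and overlapped for the others. For Ltb the 12 lymphoid arrays ran from 2258 to 6250.2 (median 3504) and the 15 others from 102 to 303 (median 126). For Cd48 they ran from 1034 to 4211 (median 2499) against 72.2 to 517 (median 166). Such complete separation was met by 2.56% of all probe sets. For Cd83, 9 of the 12 lymphoid arrays lay above all 15 others, for Cd27 _at 10 and for Cd27 _s_at 9, and in each case the overlapping arrays were those of bone marrow.

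**Figure D1:**
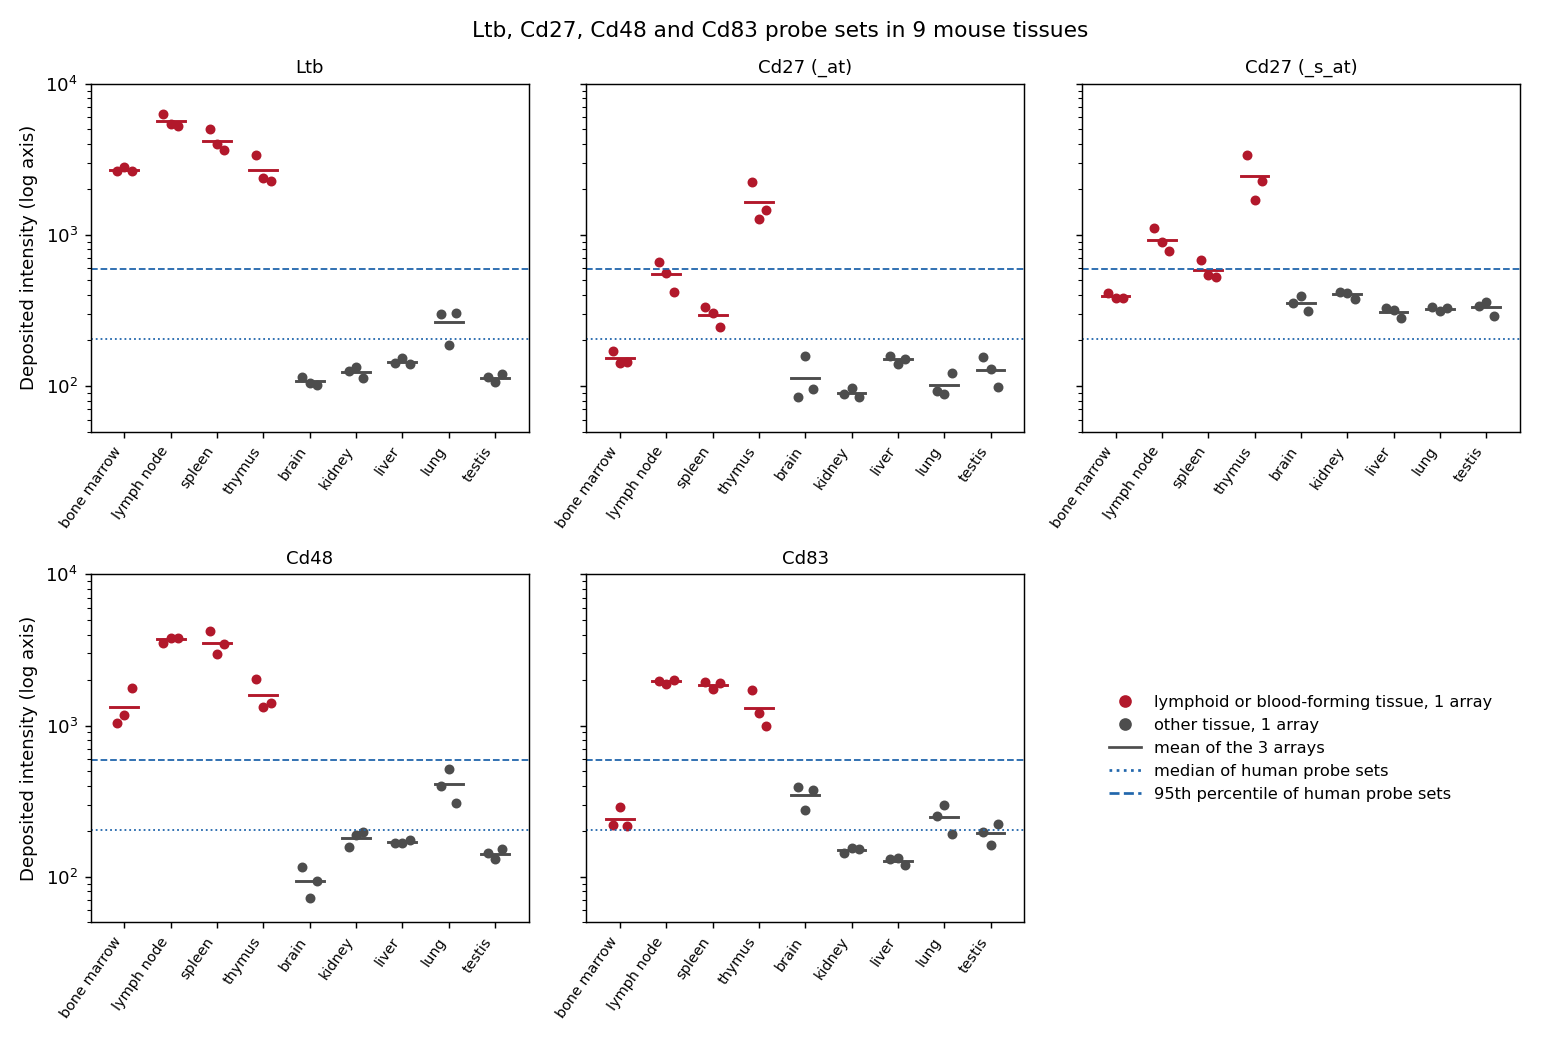
Deposited intensity of the 5 probe sets on each of the 27 arrays (log axis), with points for arrays, short bars for the mean of the 3 arrays of a tissue, red for lymphoid and grey for other tissues, and blue lines for the median (205.2) and 95th percentile (590.1) of the human probe sets. Ltb and Cd48 stand at 1034 or more on all 12 lymphoid arrays, Cd83 is high in lymph node, spleen and thymus but not in bone marrow, and Cd27 is highest in thymus.

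Ltb was highest in lymph node. Its 3 lymph node arrays read 6250.2, 5432 and 5223 (mean 5635 ± 543, SD), and its spleen arrays 4983, 3973 and 3641 (4199 ± 699). Bone marrow gave 2639, 2826 and 2632 (2699 ± 110), and thymus 3366, 2385 and 2258 (2669 ± 607). The arrays of lymph node, spleen and bone marrow did not overlap with each other, whereas those of bone marrow and thymus did.

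Outside these tissues Ltb stood out in lung, where the arrays read 300.4, 188 and 303 (264 ± 65.6). The liver arrays lay between 139.7 and 153, those of kidney between 113.5 and 134, those of testis between 106 and 119 and those of brain between 102 and 115. Lung was higher than brain by 1.27 ± 0.16 on the log2 scale (2.41-fold, adjusted p = 3.46e-07), than testis by 1.19 (2.28-fold, 8.21e-07) and than kidney by 1.05 (2.08-fold, 6.43e-06). The call against testis was lost under quantile normalization (0.94). The call against kidney was lost there (0.96), under median centring and with an offset of 16 in place of the floor (0.97 each), and without lung replicate 1 or 3 or kidney replicate 3 (0.94 to 0.99), all under the size of 1 a call needs. Lung and liver differed by 0.83, short of that size, and by 1.06 without lung replicate 2, the lowest of the 3 lung arrays.

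In the order of Ltb levels the largest step was from thymus down to lung, 3.35 ± 0.16 on the log2 scale (10.2-fold, adjusted p = 1.34e-14). No other pair of neighbours in the order passed the rule. Lymph node exceeded spleen by 0.43 ± 0.16 (adjusted p = 0.0745) and spleen exceeded bone marrow by 0.63 (0.00323), while bone marrow and thymus differed by 0.04 (0.906). Lymph node was higher than bone marrow by 1.06 (2.08-fold, 7.35e-06) and than thymus by 1.10 (2.14-fold, 6.97e-06), and neither call held in every alternative. The first was lost under quantile normalization (0.87), median centring (0.91) and without lymph node replicate 1 (0.98). The second was lost under median centring (0.95) and without thymus replicate 3 (0.99).

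The receptor Ltbr had another distribution than its ligand. Its lung arrays read 717, 489 and 700.0 (635 ± 127), its liver arrays 657, 578 and 560.0 (598 ± 51.4) and its kidney arrays 561, 428 and 458.5 (483 ± 69.8). Lymph node (215 ± 34.6), spleen (232 ± 43.5) and thymus (233 ± 15.8) were all lower than these, as was testis (193 ± 36.9), with bone marrow between (362 ± 62.3) and brain lowest (145 ± 30.7). Testis and brain lay under the human probe sets' median of 205.2, and lymph node, spleen and thymus near it. Ltbr was called among the tissues, with a range of 4.39-fold. Set against the other 8 tissues, lung was at 1.19 ± 0.14 (adjusted p = 1.68e-07), liver at 1.11 ± 0.14 (3.52e-07) and brain at -1.21 ± 0.14 (9.16e-08), all called. The lymphoid mean minus the other mean was -0.45 ± 0.09, which did not reach the size for a call.

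Lta, the partner subunit, had 2 probe sets (suffixes _s_at and _x_at), and neither was called among the tissues or between the groups. On the _x_at set lymph node gave 459.5 ± 34.9 and spleen 467 ± 35.9, against 236 to 342 as means of the other 7 tissues. On the _s_at set lymph node gave 163 ± 14.7 and spleen 154 ± 13.1, against 81.5 to 110.0. All means of this set lay under the human probe sets' median of 205.2. Lymph node and spleen were thus the highest tissues on both sets, with lymphoid minus other differences of 0.29 ± 0.06 and 0.43 ± 0.05, and bone marrow, where Ltb was high, read 260.5 and 94.4. By RefSeq gene order Ltb and Lta are close neighbours with Tnf between them, and Ltbr lies next but 1 to Cd27.

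**Figure D2:**
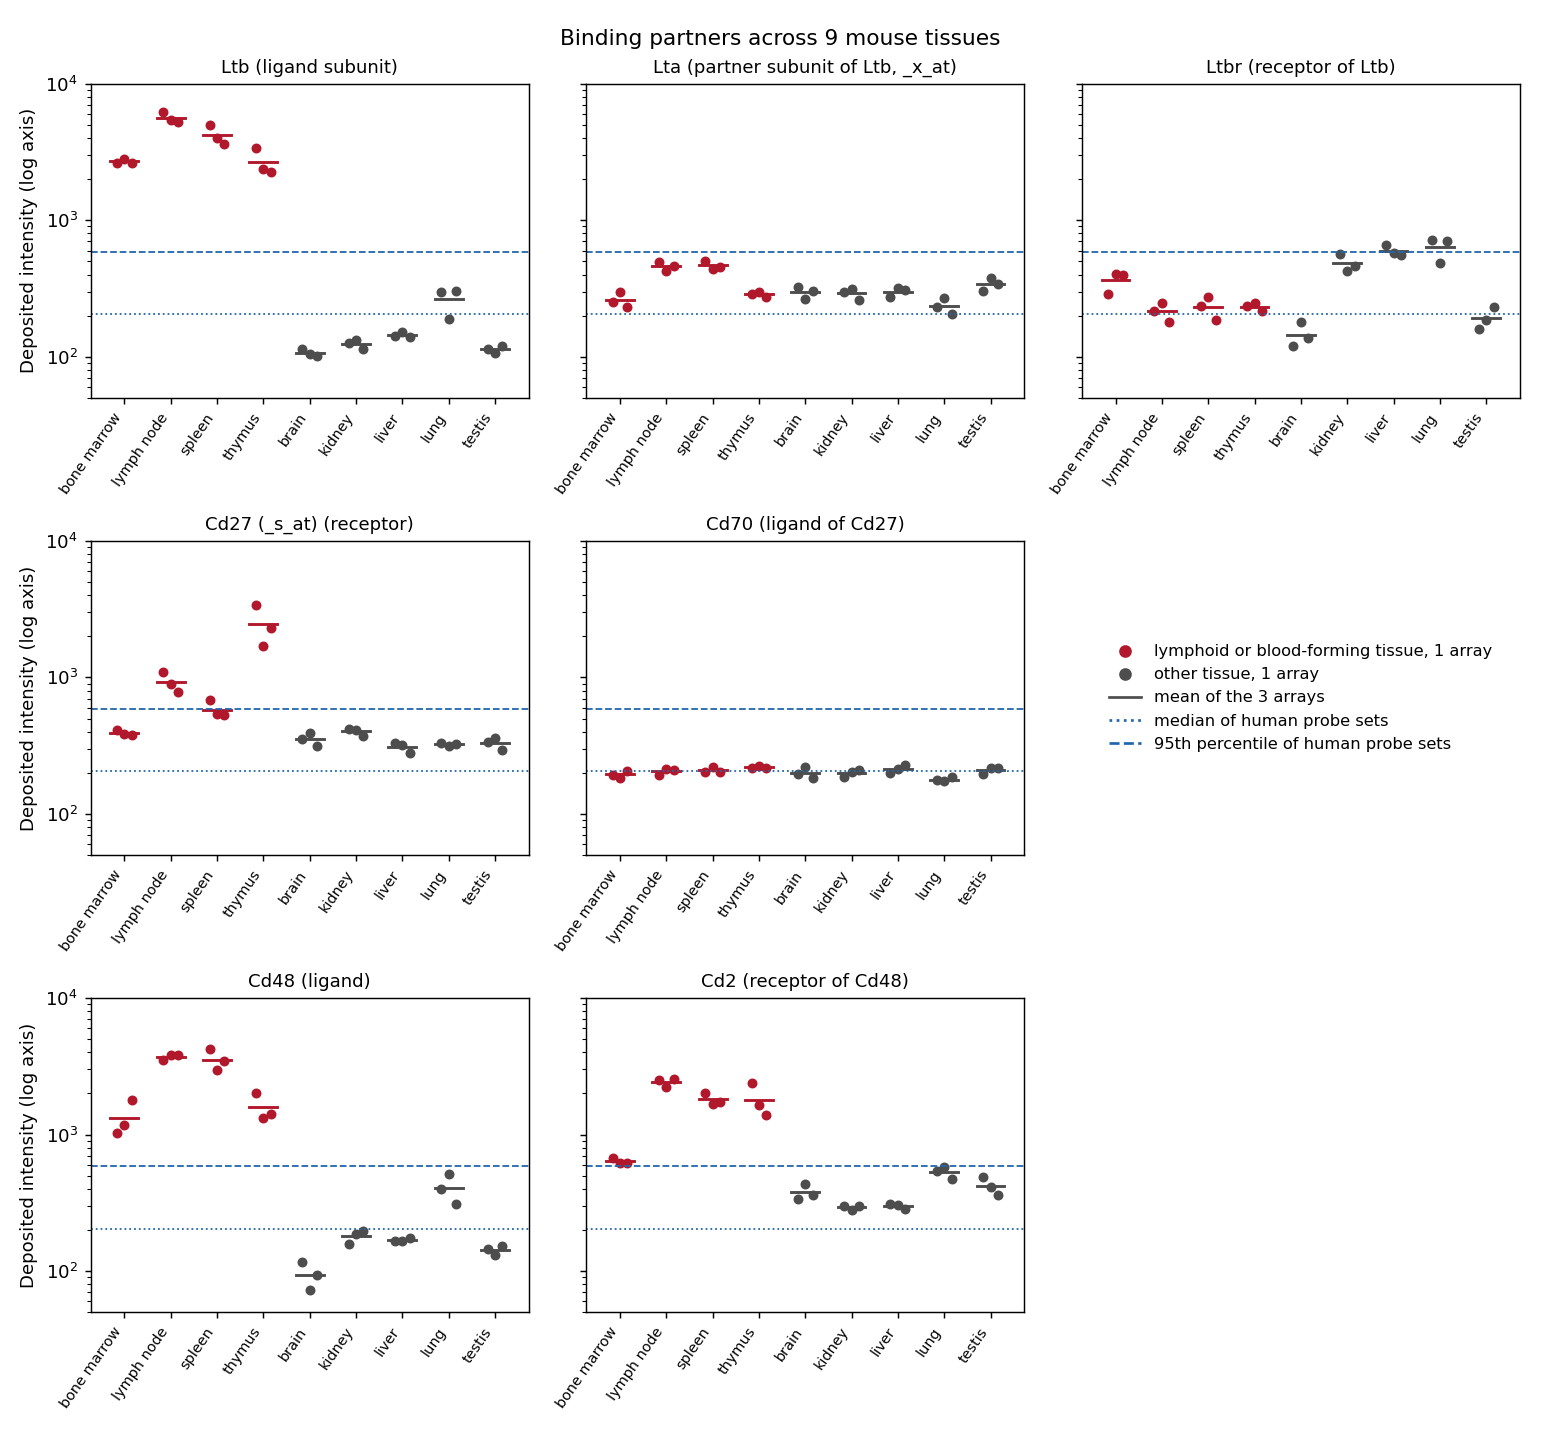
Deposited intensity (log axis) of Ltb, Cd27 (_s_at) and Cd48 in the left column beside their binding partners Lta (_x_at), Ltbr, Cd70 and Cd2, with points for single arrays, bars for means of 3, red for lymphoid tissues and blue lines for the human probe sets' median and 95th percentile. Ltbr is highest in lung (635) and liver (598), Cd70 stays between 179 and 220 as tissue means, and Cd2 is highest in lymph node (2422).

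Of 33 listed lymphotoxin and TNF ligands, receptors and signalling genes 17 were measured. Among the tissues 7 of these 17 were called, against 52.3% of all probe sets. In the lymphoid contrast 1 of 17 was called higher (11.5% of all probe sets) and 0 lower (3.13%). The median difference was 0.18 against -0.04 over all probe sets. The gene called higher was Tnfrsf1b, the second TNF receptor, higher by 1.45 ± 0.07 (2.74-fold, adjusted p = 1.79e-15), with 1489 ± 101 in lymph node and 259 ± 4.9 in brain. Of the other 6 called among tissues, Tnfrsf4 had its highest mean in lymph node and 5 in lung. These 5 included Fas, the death receptor (942.5 ± 68.0 in lung, range 7.85-fold), and the B cell survival factor Tnfsf13b (540.2 ± 47.7 in lung, range 3.54-fold).

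Genes whose expression in lymphoid organs depends on or serves lymphotoxin signalling, by textbook knowledge, formed a second list of 16, with 13 measured. Of these 13, 10 were called among tissues (52.3% of all probe sets). In the lymphoid contrast 7 of 13 were called higher (11.5% of all) and 0 lower (3.13%), with a median difference of 1.03. Cxcl13, the B cell follicle chemokine, was higher by 2.48 ± 0.07 (5.59-fold, adjusted p = 7.35e-19), with 3523 ± 199 in lymph node and 2905 ± 413 in spleen but 158 ± 36.4 in thymus and 94.8 ± 8.3 in bone marrow. The chemokine gene Ccl21b was higher by 2.31 ± 0.07 (4.97-fold, 2.27e-18), on an _s_at set, whose probes can match more than 1 transcript. It reached 9377 ± 1069 in lymph node, with 5537 ± 1418 in thymus and 248 ± 20.1 in bone marrow. Lung, at 2074 ± 240, was its highest non-lymphoid tissue.

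The other 5 called genes were Vcam1 (2.06), an adhesion ligand of stroma and endothelium, the chemokine receptor Ccr7 (2.03), Cxcl12 (1.55), the integrin chain Itgb7 (1.41) and the follicle homing receptor Cxcr5 (1.03). The call of Cxcr5 was lost under quantile normalization (0.90), median centring (0.98) and an offset of 16 in place of the floor (0.96). Icam1 and Itga4 were called on 1 of their 2 probe sets each, not on the set with the higher mean that the count uses. The high endothelial mucin Glycam1 was not called in the lymphoid contrast (0.78 ± 0.07), though lymph node read 4306 ± 298 and every other tissue mean lay at 313 or less. Bone marrow, with Ltb at 2699, was at 94.8 for Cxcl13, within the non-lymphoid tissue means of 91.8 to 137, and at 248 for Ccl21b, the lowest mean of the 9 tissues.

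**Figure D3:**
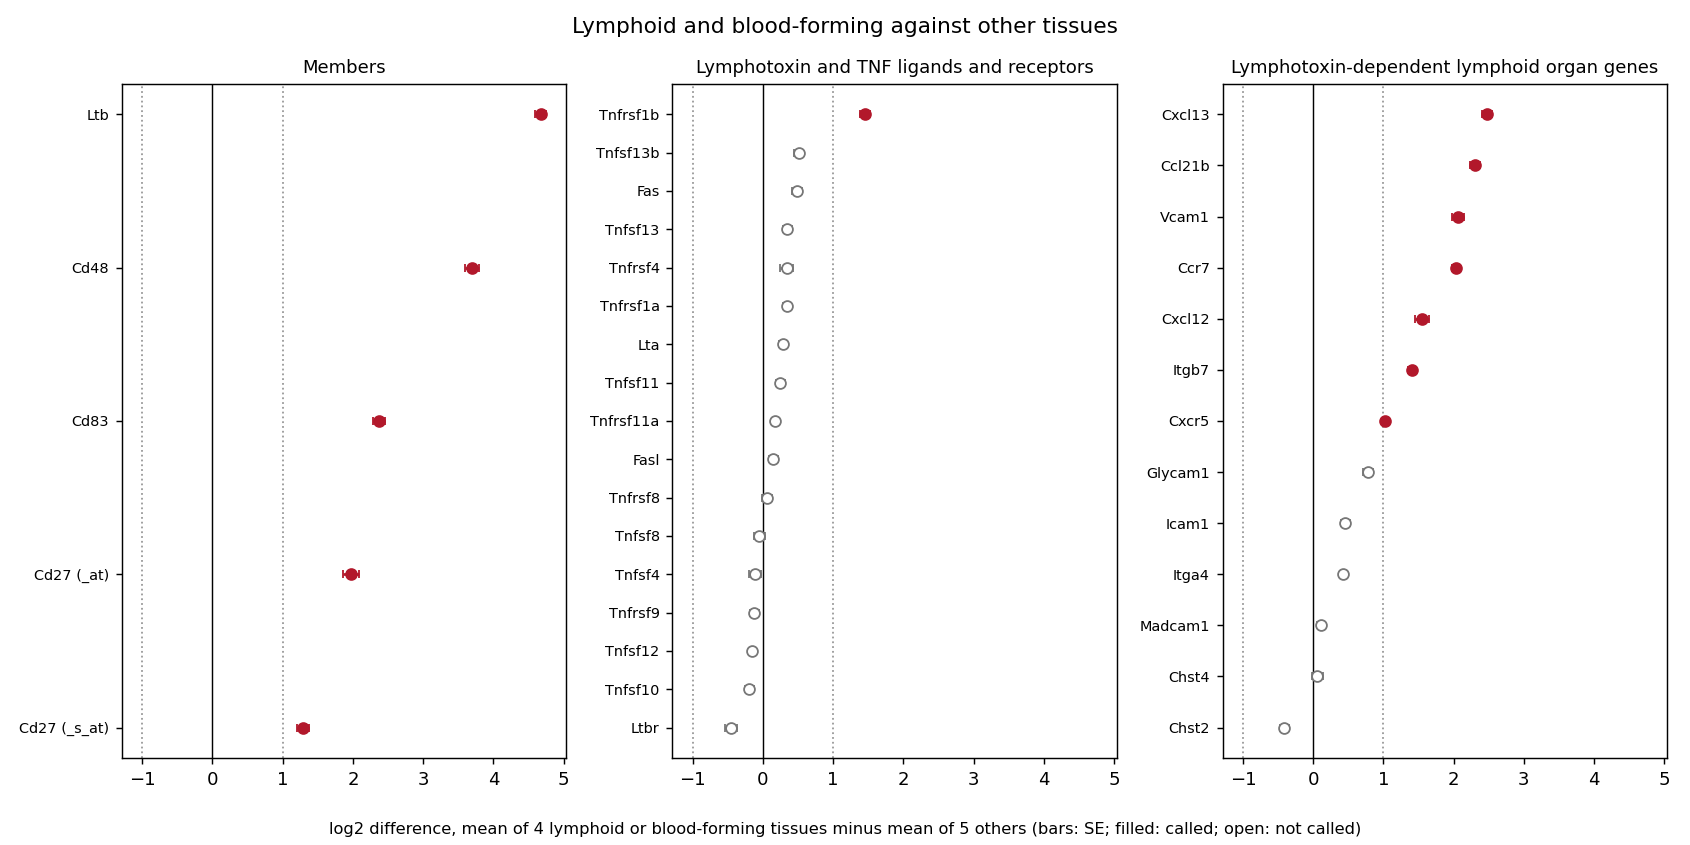
Difference on the log2 scale between the mean of the 4 lymphoid and the mean of the 5 other tissues, with SE, for the 5 member probe sets, the 17 measured lymphotoxin and TNF genes and the 13 measured lymphoid organ genes, 1 probe set per list gene. Filled points passed the call rule. In the middle panel 1 of 17 was called higher and in the right one 7 of 13, where 11.5% of all probe sets were. The members had differences of 1.29 to 4.67.

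Cd27 was highest in thymus on both probe sets. On _at the thymus arrays read 2223, 1264 and 1469 (1652 ± 505), the lymph node arrays 659.6, 562 and 421 (547.5 ± 119.9) and the spleen arrays 333, 302.5 and 245 (293 ± 44.5). These 3 tissues did not overlap with each other or with any other tissue on this set. Bone marrow read 171.5, 142.3 and 144.5 (153 ± 16.3), which overlapped with liver (140.1 to 158), testis (98.3 to 156) and brain (84.5 to 158), while lung ran from 89.2 to 122 and kidney from 84.1 to 96.3.

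On _s_at the thymus arrays read 3376, 1704 and 2282 (2454 ± 849), the lymph node arrays 1103, 899.8 and 776 (926 ± 165) and the spleen arrays 678, 539 and 529 (582 ± 83.2). Kidney (403 ± 25.4) and bone marrow (391 ± 15.7) came next, then brain (354 ± 39.5), testis (331 ± 35.1), lung (324 ± 10.3) and liver (311 ± 25.4). The first 3 places were therefore the same on both sets, and the lower ones were not: kidney was last on _at but right after spleen on _s_at. Over the 9 tissue means the log2 values of both sets had a Pearson r of 0.966, as a description, since both sets were read on the same arrays.

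Thymus exceeded lymph node by 1.58 ± 0.22 on _at (2.98-fold, adjusted p = 5.31e-06) and by 1.36 ± 0.17 on _s_at (2.57-fold, 8.23e-07). It exceeded spleen by 2.46 (5.51-fold, 5.54e-09) and 2.03 (4.08-fold, 1.47e-09), and bone marrow by 3.40 (10.5-fold, 1.34e-11) and 2.59 (6.04-fold, 1.34e-11). The steps from lymph node to spleen (0.89 and 0.66) and from spleen to bone marrow (0.94 and 0.57) did not reach the size of 1, although their arrays did not overlap; on _at the second step passed it without spleen replicate 3 (1.06) or bone marrow replicate 1 (1.02) and the first without lymph node replicate 3 (1.06) or with array weights (1.03). Bone marrow was not called against any non-lymphoid tissue on either set, with differences from -0.04 to 0.77.

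Cd70, the ligand of Cd27, showed no such pattern. Its tissue means lay between 179 ± 6.2 in lung and 219.7 ± 4.1 in thymus, a range of 1.23-fold near the median of the human probe sets, and it was not called among the tissues (adjusted p = 0.0934). Of 20 listed genes of Cd27 signalling and T cell costimulation 4 were measured, and 2 were called among tissues (52.3% of all probe sets). The same 2 were higher in the lymphoid contrast (11.5% of all) and 0 lower, with a median difference of 1.02. They were Cd44, a hyaluronan receptor of activated leukocytes (2.19 ± 0.07, highest in bone marrow with 6054 ± 1348), and Cd2. Cd40lg, the T cell ligand of Cd40, was not called (-0.08 ± 0.05).

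Cd48 was highest in lymph node and spleen. Its lymph node arrays read 3519, 3803 and 3809 (3710.3 ± 165) and its spleen arrays 4211, 2970 and 3448 (3543 ± 626), and these tissues overlapped. Thymus gave 2029, 1323 and 1413 (1588 ± 384) and bone marrow 1034, 1176 and 1785 (1332 ± 399), which overlapped as well. Lung came next with 397, 517 and 309 (408 ± 104), above kidney (157 to 198), liver (166 to 175), testis (131 to 152) and brain (72.2 to 117).

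The levels of Cd48 fell in 3 steps that passed the rule. Spleen exceeded thymus by 1.17 ± 0.20 (2.25-fold, adjusted p = 8.14e-05), a call lost under quantile normalization (0.80). Bone marrow exceeded lung by 1.70 ± 0.20 (3.25-fold, 2.25e-07) and lung exceeded kidney by 1.15 ± 0.20 (2.21-fold, 6.34e-05), which was 0.96 and no longer called without lung replicate 2. Lymph node and spleen differed by 0.08 (adjusted p = 0.882), thymus and bone marrow by 0.27 (0.370), and kidney and liver by 0.09 (0.817). Testis exceeded brain by 0.62 (0.0194) with no overlap of arrays, short of the size for a call.

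Cd2, a lymphocyte receptor that binds Cd48, was higher in the lymphoid tissues by 1.99 ± 0.07 (3.98-fold, adjusted p = 1.32e-17). Its lymph node arrays read 2492, 2234 and 2539, its spleen arrays 2023, 1669 and 1726 and its thymus arrays 2370, 1654 and 1392. Bone marrow was lower with 676, 617 and 615, just above the highest lung array (576). Cd2 was thus about as high in thymus (1805 ± 506) as in spleen (1806 ± 190.0), while Cd48 was lower in thymus than in spleen. It was the only gene measured of 11 listed for the Cd2 and Slam family, and by RefSeq gene order Cd48 lies among unmeasured relatives, with Slamf7 and Ly9 on 1 side and Slamf1 and Cd84 on the other.

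Cd83 was high in lymph node, spleen and thymus. Its lymph node arrays read 1978, 1894 and 2009.8 (1961 ± 59.7), its spleen arrays 1952, 1737 and 1905 (1865 ± 113) and its thymus arrays 1715, 1216 and 988 (1307 ± 372). Bone marrow stood apart from these with 221, 287 and 215.5 (241 ± 40.0), within the range of lung (191 to 300.4). Brain was the highest non-lymphoid tissue with 389, 276.5 and 373 (346 ± 61.0), followed by lung, testis (161 to 222), kidney (145 to 155) and liver (119 to 132).

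A single step in the order of Cd83 levels passed the rule, from thymus down to brain (1.89 ± 0.18, 3.72-fold, adjusted p = 3.53e-09). Lymph node and spleen differed by 0.07 (0.872) and spleen exceeded thymus by 0.55 (0.0203). Lymph node exceeded bone marrow by 3.04 ± 0.18 (8.20-fold, 8.00e-13), spleen by 2.96 (7.79-fold, 3.18e-12) and thymus by 2.41 (5.32-fold, 1.01e-10). Brain exceeded kidney by 1.18 (2.27-fold, 6.15e-06) and liver by 1.42 (2.68-fold, 3.50e-07), the only calls among non-lymphoid tissues for this gene in this fit. Brain over testis passed the size with array weights (1.07) and lung over liver without lung replicate 3 (1.11). The difference of brain from bone marrow, 0.52 (0.0198), was not called.

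Of 21 listed immunoglobulin-type lectins and adhesion proteins, the wider structural family of Cd83 and Cd48 on this array, 12 were measured. Among tissues 7 of 12 were called, against 52.3% of all probe sets. In the lymphoid contrast 2 of 12 were higher, against 11.5% of all, and 0 lower, with a median difference of 0.28. They were Icam2 (1.62 ± 0.06, highest in lung) and Vcam1. The B cell lectin Cd22 was called higher on its _at set (2.05 ± 0.08) and not on its _x_at set (0.63 ± 0.10), which had the higher mean and is the one counted. Icam1 was called higher on its _s_at set (1.05 ± 0.05) and not on the counted _at set (0.46 ± 0.06).

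Each tissue was also compared with the average of the other 8, each weighted equally, which gave 45 values for the 5 probe sets, 14 called higher and 15 lower. Lymph node was called higher for 4 of 5 (11.8% of all probe sets): Ltb 3.65 ± 0.12 (12.5-fold), Cd48 3.11 ± 0.15 (8.66-fold), Cd83 2.53 ± 0.13 (5.78-fold) and Cd27 _at 1.55 ± 0.17 (2.93-fold), with Cd27 _s_at at 0.95, which passed the size without lymph node replicate 3 (1.07), with array weights and against the median of the other 8 (1.30). Spleen was called higher for 3 of 5 (9.97% of all): Ltb 3.16, Cd48 3.02 and Cd83 2.45, with Cd27 at 0.55 and 0.21; against the median of the other 8, Cd27 _at was at 1.09 in spleen, past the size. In spleen and lymph node alike Ltb showed the largest difference and Cd27 the smallest.

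Thymus was the 1 tissue called higher for all 5 (5.56% of all probe sets). Cd27 led with 3.32 ± 0.17 on _at (10-fold, adjusted p = 1.11e-13) and 2.49 ± 0.13 on _s_at (5.61-fold, 1.20e-13), followed by Ltb with 2.41, Cd83 with 1.83 and Cd48 with 1.71. Without thymus replicate 1, the highest array for all 5, the values were 3.09, 2.23, 2.23, 1.61 and 1.52 in that order, all still called.

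Bone marrow was called higher for 2 of 5 (6.13% of all): Ltb with 2.45 ± 0.12 (5.48-fold, adjusted p = 4.78e-14) and Cd48 with 1.41 ± 0.15 (2.65-fold, 4.96e-08). Cd83 was at -0.88 ± 0.13 there, and at -1.02, past the size, without bone marrow replicate 2. Cd27 was at -0.50 and -0.43. Within the same arrays, then, Ltb and Cd48 were above the mean of the other tissues and Cd83 and Cd27 below it. In the main fit neither Cd83 nor Cd27 was called lower, and that mean includes the other lymphoid tissues.

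In the non-lymphoid tissues every value was negative. Kidney was called lower for 4 of 5 (6.70% of all probe sets), with Ltb at -2.54, Cd48 at -1.79, Cd83 at -1.63 and Cd27 _at at -1.36. Brain was called lower for 3 (10.7%), with Cd48 at -2.88, Ltb at -2.78 and Cd27 _at at -1.05, while Cd83 was at -0.30. The call of Cd27 _at in brain was lost under quantile normalization (-0.97), median centring (-1.0 when rounded), the offset of 16 (-0.98) and without brain replicate 1 (-0.87) or 3 (-0.96). Liver (9.97%) and testis (13.4%) were each called lower for Ltb (-2.30 and -2.69), Cd48 (-1.90 and -2.18) and Cd83 (-1.90 and -1.24).

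Lung was called lower for 2 (1.28% of all probe sets), Ltb at -1.36 and Cd27 _at at -1.18. Cd48 was at -0.50 in lung and Cd83 at -0.85, which reached -1.0 and was called without lung replicate 2. The reference of each such difference holds the other lymphoid tissues. Against the median of the other 8 in place of the mean, Cd27 _at was -0.48 in brain, -0.75 in kidney and -0.59 in lung, and Cd83 -0.94 in kidney and -0.59 in testis, so these 5 calls were lost and the 2 for Cd27 in spleen and lymph node given above were gained. The adjusted p of the comparison with the mean was kept for these values, since the median gives none of its own.

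**Figure D4:**
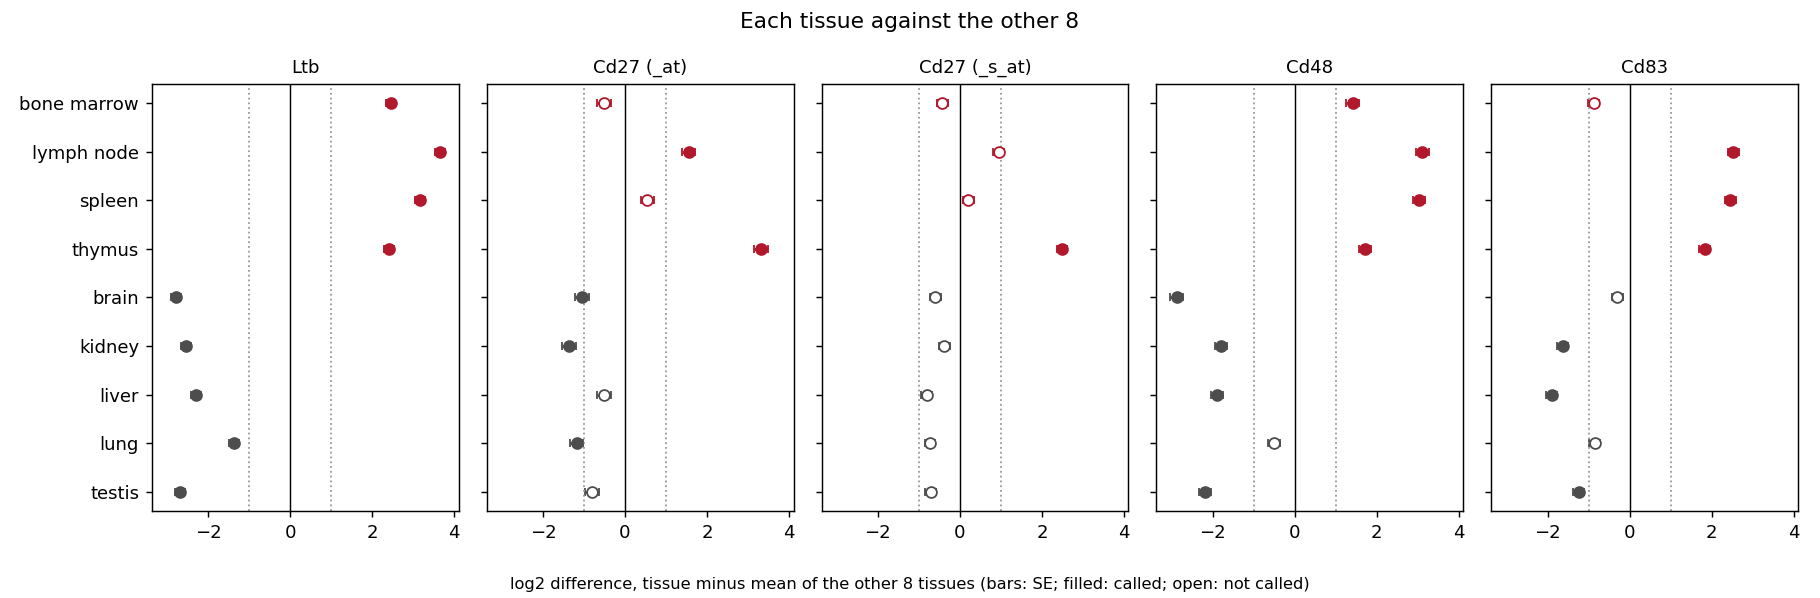
Difference on the log2 scale between each tissue and the mean of the other 8, with SE, 1 panel per member probe set, red for lymphoid and grey for other tissues. Filled points passed the call rule and open ones did not; bone marrow is at 2.45 for Ltb and 1.41 for Cd48 but at -0.88 for Cd83, and thymus is the highest tissue for Cd27 alone.

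Over all 36 pairs of tissues, 105 of the 180 differences of the 5 probe sets were called, where 17.0% of all such differences on the array were. Cd48 was called in 28 pairs, Ltb in 25, Cd83 in 20, Cd27 _at in 18 and Cd27 _s_at in 14. Of the 20 pairs of a lymphoid with another tissue, Ltb and Cd48 were called in 20 each, Cd83 in 15, Cd27 _at in 14 and Cd27 _s_at in 10 (7 under quantile normalization), where 19.6% of all such differences on the array were called. In Cd83 the 5 pairs not called were those with bone marrow. Between lymphoid tissues 17 of 30 differences were called (9.62% over all probe sets), 12 under quantile normalization, where Cd48 kept 1 of 4, and between non-lymphoid tissues 9 of 50 (16.1% over all), a share near that of the array. These 9 were lung over other tissues for Ltb (3) and Cd48 (4), and brain over kidney and liver for Cd83 (2).

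Over the 9 tissue means of log2 intensity, all read on the same arrays, Ltb and Cd48 had the closest profiles of the different members, with a Pearson r of 0.983. Cd83 had 0.834 with Cd48 and 0.826 with Ltb, and Cd27 had between 0.641 and 0.787 with the others. By the same measure the genes nearest to Ltb after Cd48 were Selplg (0.975), the P-selectin ligand of leukocytes, Il2rb (0.971), a chain of the interleukin-2 receptor, Il16 (0.966) and Itgb2 (0.966), the shared chain of leukocyte integrins. Nearest to Cd48 after Ltb were 2 probe sets of Sipa1 (0.973 and 0.967), a regulator of Rap signalling, Il2rb (0.970) and the chemokine Ccl5 (0.964).

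Other genes were nearest to Cd27 and Cd83. For Cd27 _s_at they were Galnt7 (0.937), an enzyme of O-glycan synthesis, the thymocyte homing receptor Ccr9 (0.894), the integrin chain Itgal (0.890), the sialic acid synthase Nans (0.871) and Il12rb1 (0.852), all highest in thymus. For Cd83 they were Cd2 (0.963), Ugcg (0.955), the glucosylceramide synthase, Ifnar1 (0.948), Vcam1 (0.934) and Cxcl10 (0.931), highest in lymph node except Vcam1, which was highest in spleen. These correlations rest on 9 points each and carry no test.

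Markers of several cell types were called higher in the lymphoid contrast, in which 11.5% of all probe sets were called higher and 3.13% lower. Both measured T cell markers of 12 listed, Il7r and Ccr7, were called higher in the lymphoid contrast, and their summed intensity ran from 1057 to 5131 on lymphoid arrays and from 401 to 726 on the others. It was 4249 to 5131 in lymph node, 1612 to 2018 in thymus and 1057 to 1209 in bone marrow. Of 4 measured B cell markers 3 were called higher (Cd72, Fcer2a and Cxcr5), with sums of 5271 to 8981 against 2360 to 5899, most of each sum coming from the bright _x_at set of Cd22. Fcer2a read 2805 ± 225 in lymph node and 2227 ± 667 in spleen, but 513 ± 167 in bone marrow and 265 ± 12.4 in thymus.

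Of 7 measured dendritic and antigen-presenting cell markers 2 were called higher, Ly75 (1.94) and the class II chaperone Cd74 (3.20), with sums of 3931 to 12595 against 1809 to 5394. Cd74 read 8265 ± 1202 in spleen, 7716 ± 813 in lymph node, 3692 ± 228 in thymus, 2532 ± 478 in lung and 1415 ± 357 in bone marrow. The integrin chain Itgax was called higher on its _at set (1.64 ± 0.08) and not on its _s_at set (0.66 ± 0.05), the brighter one, which is counted. Macrophage and monocyte markers were called higher for 3 of 5, of which Mrc1 (1.13) was lost under quantile normalization (0.91), with sums of 1268 to 5889 against 658 to 2287. Natural killer cell markers were called higher for 1 of 3, Klrd1, and the sums of all 3 ran from 921 to 1856 against 799 to 1043. The neutrophil markers, 1 of 4 called higher, summed to 16832 to 18604 in bone marrow and to at most 2464 elsewhere. The granulocyte growth factor receptor Csf3r was likewise called higher on its _at set (2.05 ± 0.21) and not on the brighter _s_at set that is counted (0.56 ± 0.09).

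The single thymocyte marker, Ccr9, was called (1.01 ± 0.07) at the limit of the rule, and the call was lost under quantile normalization (0.93) or without brain replicate 2 (0.98), among others. High endothelial markers were called for 0 of 3 (sums of 669 to 5326 against 705 to 890) and hepatocyte markers for 0 of 3. Endothelial markers were called lower for 1 of 5 (Tek, with Emcn gained under quantile normalization at -1.05). Neuron and glia markers were called lower for 1 of 5, Ugt8a, which on the counted set had its highest mean in kidney and not in brain. Lung epithelial markers were called lower for 1 of 2, Cxcl15 at -1.01, a call lost with the offset of 16 (-0.99) and when any of several arrays was left out (-0.96 without lung replicate 2). The surfactant protein gene Sftpd, the other of these 2, was called lower on its _at set (-1.34 ± 0.09) and not on the brighter _s_at set that is counted (-0.78 ± 0.07). No marker was at 0 on any array, but the lowest value, 3.9 for Ccr2 _at in liver, lay under the floor of 16. An intensity above 0 is thus no sign that a cell type was present. The part of these cell types in the members' differences was not tested.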

How the data were processed

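RNA from 9 mouse tissues was hybridised to 27 1-colour arrays, 3 per tissue. Each of 1813 probe sets has an intensity per sample in the deposited table, on a linear scale; how the authors summarised, background-corrected and scaled the intensities is not stated in what was used here. In the platform annotation 1563 probe sets had 1 gene symbol, 2 several and 248 none. RefSeq (GRCm38.p6) gave mouse names (1 updated) and gene order; 839 human probe sets stayed out of the tests. Deposited intensities under 16 (51 values, none of a member) were raised to 16 and log2 taken. limma 3.58.1 in R 4.3.3 (lmFit, eBayes) took the 702 mouse probe sets on 27 arrays, with a coefficient for each tissue, with Benjamini-Hochberg adjustment within each contrast; a call needed an adjusted p under 0.05 and a log2 difference, or range, of at least 1. List genes use the probe set with the highest mean. The script was tested on simulated data.

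The members and lists were chosen with earlier results of these data known. Named genes are the members, any measured list gene and the 5 probe sets of other genes nearest to each member over tissue means. Alternatives were quantile normalization, median centring, a filter on low values, a floor of 64, an offset of 16, 1 probe set per gene, trend and robust eBayes, array weights, a replicate block, the median of the other 8 tissues and leaving out each array. No 2 arrays held identical values.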

Additional observations from a re-analysis of the deposited data

How the results depend on the processing

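Of 11346 pairs of a value and an alternative, over 317 values, 11270 were unchanged, 57 lost a call, 19 gained one and 0 reversed. Unchanged means on the same side of the rule, and a change of sign was looked for only where a value of the pair was called. A count of calls was held unchanged if it stayed within a set ratio of the main count. The F test and the lymphoid contrast each called all 5 probe sets under every alternative that kept them, and 4 of 4 where the low-value filter or 1 probe set per gene dropped Cd27 _at. The calls of each tissue against the other 8 were 29, with 28 to 30 when an array was left out, 26 against the median of the other 8, and 24 where Cd27 _at was dropped. The pair calls were 105, with 104 to 107 when an array was left out, 95 under quantile normalization and 87 without Cd27 _at. Quantile normalization gave the lowest lymphoid differences, 4.36 for Ltb, 3.39 for Cd48, 2.12 for Cd83, and 1.85 and 1.05 for Cd27.

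The title numbers were not taken to pair arrays, since they are not stated to mark a shared animal or day. Of 108 same-number pairs from different tissues 23 had deviations correlated above 0.1, a count not made for other pairs. The median correlation was 0.021 against 0.014 for other pairs. With the number as a replicate block the counts were again 5, 5, 29 and 105. Signal over background limits the low values: many member intensities outside lymphoid tissues lie under the human probe sets' median of 205.2.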

Other observations

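The array also holds human probe sets for the 4 genes, read here on mouse RNA and used in no comparison. The human LTB set read 478 ± 74.9 in lymph node, 439 ± 90.7 in spleen, 283 ± 16.7 in thymus and 235 ± 11.5 in bone marrow, and between 157 and 199 as means of the other 5 tissues, with single arrays from 149.5 to 549. Its 9 tissue means had a Pearson r of 0.87 with those of mouse Ltb, on the same arrays. The human CD48 set (264 to 390.0, highest in testis), the CD83 set (199.7 to 281, highest in thymus) and the CD27 set (434 to 788, highest in liver) had r of -0.52, -0.33 and, with both mouse Cd27 sets, -0.34 and -0.49.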
